A study of Homo sapiens with 18 samples.

Results

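The ERBB family receptors EGFR, ERBB2, ERBB3 and ERBB4 and 6 of their ligands (NRG1, NRG2, AREG, EREG, HBEGF and TGFA) were followed in OVCAR-3, an established cell line of high-grade serous ovarian carcinoma, during inhibition of BET bromodomain proteins. These 10 genes were taken by name from the 58825 genes of the count tables, and all 10 were found in all 18 libraries. Cells in stripped medium received the BET inhibitors i-BET858 or i-BET151 at 1 µM, or DMSO as the control, for 4 or 24 h. Each of the 6 groups had 3 biological replicates, so that every group is the same cell line in monoculture and differs only in compound and time. Poly-A RNA was sequenced, and levels are given as CPM, the count of a gene relative to the effective total of its library, with 1 scaling of the 18 libraries by the trimmed mean of M-values (TMM).

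In GRCh38 with the GENCODE 44 annotation, EGFR spans chr7:55019017-55211628, ERBB2 chr17:39687914-39730426, ERBB3 chr12:56076799-56103505 and ERBB4 chr2:211375717-212538841. Of the ligands, NRG1 spans chr8:31639222-32855666, NRG2 chr5:139846779-140043299, AREG chr4:74445136-74455005, EREG chr4:74365145-74388749, HBEGF chr5:140332843-140346603 and TGFA chr2:70447284-70554193. ERBB4, NRG2, HBEGF and TGFA are on the minus strand, the others on the plus strand. Counts cover all annotated exons of a gene, so that isoforms, among them the many of NRG1, are not told apart.

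BET proteins read acetylated histones through their bromodomains and support transcription by RNA polymerase II, and inhibitors such as i-BET151 displace them from chromatin. ERBB receptors are tyrosine kinases of the cell surface that signal as dimers through the RAS-MAPK and PI3K-AKT pathways. EGFR binds AREG, TGFA, HBEGF and EREG, ERBB3 and ERBB4 bind the neuregulins, ERBB4 also binds HBEGF and EREG, and ERBB2 has no known ligand of its own and acts as the partner of the others. ERBB3 has little kinase activity and passes on the neuregulin signal mainly with ERBB2. In ovarian carcinoma, ERBB3 activated by the neuregulin that the tumour cells make themselves is a known autocrine loop.

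Library totals lay between 27323969 and 46299994 counts, so that 3 counts, the limit that a count of 0 allows, correspond to 0.0653 to 0.109 CPM (counting error only). The libraries of replicate 3, deposited later than the others, had a count for 17817 to 20642 genes, against 23674 to 24947 in replicates 1 and 2. All 10 markers of serous ovarian epithelium (among them PAX8, WT1 and MUC16) reached 1 CPM in every library. Their summed level, most of it KRT8, was 8786 to 10300 CPM with DMSO, 11780 to 12280 CPM after 4 h of i-BET858, 9900 to 10440 CPM after 4 h of i-BET151 and 7097 to 7569 CPM with either inhibitor at 24 h, and any part of this in the results was not tested. None of 4 immune markers (0 to 0.936 CPM summed) reached a mean of 1 CPM. Of 5 fibroblast and 3 endothelial markers only COL1A1 (list sum 21.4 to 50.8 CPM) and VWF (0.578 to 5.37 CPM) did, without DCN, PDGFRB, PECAM1 or CDH5. HEXIM1, the usual readout of BET inhibition, was higher in all treated libraries (585 to 724 CPM for i-BET858, 371 to 475 CPM for i-BET151) than in the DMSO libraries (165 to 207 CPM).

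A transcript was called changed at a Benjamini-Hochberg adjusted p under 0.05 in edgeR's quasi-likelihood test over all genes of a time point. The main fits held group means only and did not pair libraries by replicate number. With i-BET858, 7 of the 9 genes that could be tested were called after 4 h (5 higher and 2 lower, 4 of them at least 2-fold) and 6 after 24 h (3 higher and 3 lower, 3 at least 2-fold). Over all genes tested, 30.8% were called at 4 h (14.5% higher, 16.3% lower, 14.1% at least 2-fold) and 41.7% at 24 h (20.5% higher, 21.3% lower, 18.8% at least 2-fold). With i-BET151, 5 were called at 4 h (3 higher, 2 lower, 2 at least 2-fold) and 5 at 24 h (3 higher, 2 lower, 3 at least 2-fold). In bulk RNA, less transcript per cell and fewer transcribing cells cannot be told apart. The background was then 16.2% (7.81% higher, 8.43% lower, 7.10% at least 2-fold) and 33.8% (17.2% higher, 16.6% lower, 13.7% at least 2-fold). EREG had too few counts to be tested. The plot of levels by library shows all 9 tested genes.

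**Figure D1:**
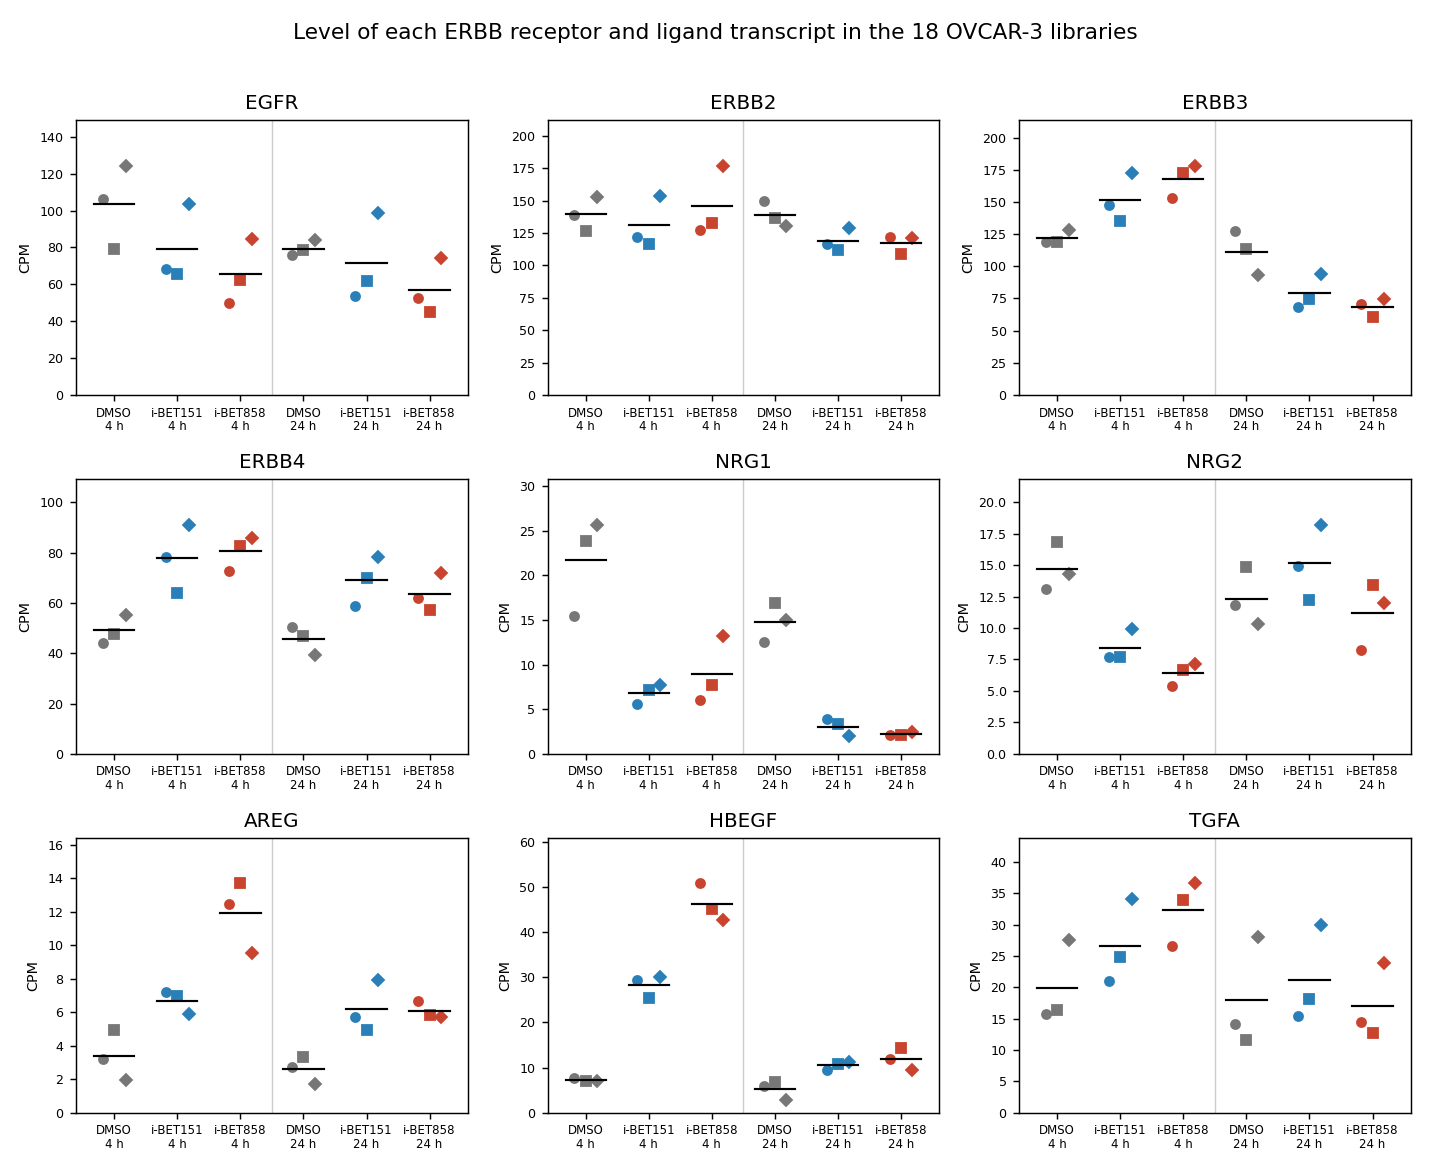
Level of 9 ERBB receptor and ligand transcripts in CPM (linear axes from 0, each with its own scale) by treatment and time. Circles, squares and diamonds are replicates 1, 2 and 3, and the line is the mean. HBEGF and AREG lie above the DMSO libraries of the same time in every treated library, NRG1 lies below DMSO in every treated library of the same time, and ERBB3 lies above DMSO at 4 h and mostly below it at 24 h.

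AREG, HBEGF and ERBB4 were the genes called with both inhibitors at both times, apart from NRG1, which is not shown. The 250 bases before the RefSeq start of each (GRCh38.p14) are given 5′ to 3′ on the strand of the gene, because these genes rose together. Capitals mark matches, on either strand, to TATAAA (the TATA box), TGANTCA (the AP-1 site), TGACGTCA (the cAMP response element), CACGTG (the E-box bound by MYC) or GGGCGG (the GC box). AREG is on chr4:74444886-74445135 (plus strand), HBEGF on chr5:140346604-140346853 (minus strand) and ERBB4 on chr2:212538803-212539052 (minus strand).
AREG: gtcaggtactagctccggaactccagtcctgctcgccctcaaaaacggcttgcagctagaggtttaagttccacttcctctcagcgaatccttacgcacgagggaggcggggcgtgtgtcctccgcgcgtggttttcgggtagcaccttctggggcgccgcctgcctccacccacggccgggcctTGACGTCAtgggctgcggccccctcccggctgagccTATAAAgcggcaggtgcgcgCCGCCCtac
HBEGF: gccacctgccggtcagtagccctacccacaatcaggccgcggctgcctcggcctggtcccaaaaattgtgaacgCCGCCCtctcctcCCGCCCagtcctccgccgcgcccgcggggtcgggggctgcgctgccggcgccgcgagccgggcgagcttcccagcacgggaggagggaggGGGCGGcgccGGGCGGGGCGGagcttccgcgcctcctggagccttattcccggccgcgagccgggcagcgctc
ERBB4: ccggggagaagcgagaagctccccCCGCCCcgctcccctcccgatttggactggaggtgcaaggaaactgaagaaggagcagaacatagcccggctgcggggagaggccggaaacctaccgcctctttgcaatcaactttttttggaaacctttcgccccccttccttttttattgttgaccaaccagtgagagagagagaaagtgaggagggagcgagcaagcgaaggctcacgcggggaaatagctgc

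The windows share few of these letters. AREG holds 1 TATAAA at −29 and 1 TGACGTCA at −65, counted from the start, and 1 GGGCGG. HBEGF holds 5 GGGCGG, of which the last 2 overlap, and ERBB4 holds 1. None of the 3 holds TGANTCA or CACGTG. Among 35116 RefSeq windows of this length, 10.7% hold TATAAA, 6.57% TGANTCA, 1.65% TGACGTCA, 6.34% CACGTG and 42.6% GGGCGG. Windows of 8 of the 10 members were in the RefSeq table, and NRG2, called with both inhibitors at 4 h, holds 1 GGGCGG in each of its 2 windows. A match is a run of letters and says nothing about binding. G and C made up 65.2% of the AREG window, 76.4% of that of HBEGF and 57.2% of that of ERBB4.

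Among the receptors, ERBB3 moved in opposite directions at the 2 times. The 3 DMSO libraries at 4 h held 119, 119 and 128 CPM of ERBB3 (replicates 1, 2 and 3), against 153, 172 and 178 CPM with i-BET858 and 148, 135 and 173 CPM with i-BET151. At 24 h the DMSO libraries held 127, 113 and 93.5 CPM, those with i-BET858 70.7, 60.8 and 74.5 CPM and those with i-BET151 68.4, 75.0 and 93.7 CPM. All treated libraries thus lay above the DMSO libraries at 4 h, and below them at 24 h, except for replicate 3 of i-BET151 at 24 h, which lay at the level of replicate 3 of DMSO. ERBB3 rose after 4 h of i-BET858 by a log2 fold change of 0.46 (SE 0.12, edgeR adjusted p = 0.0129), whereas the 0.31 (SE 0.12) with i-BET151 did not pass (adjusted p = 0.108, 0.0134 with the replicate number as a block). It fell after 24 h by 0.74 (SE 0.15, adjusted p = 0.00242) with i-BET858 and by 0.52 (SE 0.15, adjusted p = 0.0209) with i-BET151. Without DMSO replicate 2 the rise with i-BET858 missed the threshold (adjusted p = 0.0501). The fall with i-BET151 was lost without DMSO replicate 1 (0.0826) or 2 (0.0569), or without i-BET151 replicate 1 (0.0889) or 2 (0.0846). ERBB3 shares 31 bases of its exons with another gene on the same strand, so reads there may have been counted for neither.

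ERBB4, the other neuregulin receptor, was higher with both inhibitors at both times. Its DMSO libraries held 44.2, 47.8 and 55.3 CPM at 4 h and 50.6, 47.0 and 39.1 CPM at 24 h. With i-BET858 the level was 72.8, 82.6 and 86.0 CPM at 4 h and 62.1, 57.2 and 71.8 CPM at 24 h. With i-BET151 it was 78.2, 63.8 and 91.1 CPM at 4 h and 59.0, 70.0 and 78.3 CPM at 24 h. No treated library overlapped the DMSO libraries of its time. The log2 fold changes were 0.72 (SE 0.15, edgeR adjusted p = 0.00405) and 0.66 (SE 0.15, adjusted p = 0.0127) at 4 h, and 0.44 (SE 0.14, adjusted p = 0.0248) and 0.58 (SE 0.14, adjusted p = 0.00848) at 24 h, with i-BET858 and i-BET151 respectively. None reached 2-fold. The call with i-BET151 at 4 h was lost without DMSO replicate 1 (0.0583). That with i-BET858 at 24 h was lost without DMSO replicate 2 (0.0593) or 3 (0.0685), or without i-BET858 replicate 1 (0.0536) or 3 (0.0789).

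EGFR held 107, 79.2 and 124 CPM in the DMSO libraries at 4 h, 50.01, 62.5 and 84.5 CPM with i-BET858 and 68.5, 65.8 and 103 CPM with i-BET151. At 24 h it held 75.7, 78.5 and 83.8 CPM with DMSO, 52.4, 45.0 and 74.1 CPM with i-BET858 and 53.9, 61.7 and 98.6 CPM with i-BET151. Replicate 3 was the highest in all 6 groups. Means were lower in every treated group, but EGFR did not pass the test: −0.65 (SE 0.24, adjusted p = 0.0588) and −0.38 (SE 0.24, adjusted p = 0.319) at 4 h, and −0.51 (SE 0.23, adjusted p = 0.102) and −0.17 (SE 0.23, adjusted p = 0.614) at 24 h with i-BET858 and i-BET151 in edgeR. DESeq2 called EGFR lower with i-BET858 at 4 h (−0.63, adjusted p = 0.0334). With the replicate number as a block, edgeR called EGFR lower with i-BET858 at both times (adjusted p = 4.24e-04 and 0.00286) and with i-BET151 at 4 h (0.0198). Leaving out DMSO replicate 2 (0.0315), i-BET858 replicate 3 (0.0171) or i-BET151 replicate 3 (0.0290) at 4 h, or i-BET858 replicate 3 (0.0336) or i-BET151 replicate 3 (0.0348) at 24 h, also gave a call with i-BET858, as did total counts (0.0126 at 4 h, 0.0449 at 24 h) and no filter on low counts (2.12e-04 and 0.00201). In replicates 1 and 2 alone EGFR was called lower in all 4 comparisons (adjusted p = 0.00341 and 0.0475 at 4 h, 6.88e-05 and 0.00184 at 24 h), for i-BET151 at 24 h with −0.45 in place of −0.17. In that setting many more genes were called in all, 10507 of 17297 for i-BET858 and 9367 for i-BET151 at 24 h, against 7158 and 5797 with all replicates.

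ERBB2, the shared dimerization partner, held 127 to 153 CPM with DMSO, 127 to 177 CPM with i-BET858 and 116 to 154 CPM with i-BET151 at 4 h, and the ranges overlapped. At 24 h the DMSO libraries held 150, 137 and 131 CPM, those with i-BET858 122, 109 and 121 CPM and those with i-BET151 116, 112 and 129 CPM. Every treated library at 24 h thus lay below every DMSO library. ERBB2 fell by 0.29 (SE 0.10, edgeR adjusted p = 0.0396) with i-BET858, whereas the −0.24 (SE 0.10) with i-BET151 did not pass (adjusted p = 0.0856, 0.0292 with the replicate block, 0.0410 in DESeq2, 0.00227 in replicates 1 and 2 alone and 0.0436 without i-BET151 replicate 3). The fall with i-BET858 was lost without any of 7 of the 9 libraries of that time (adjusted p = 0.0666 to 0.144, the exceptions being DMSO and i-BET151 replicate 3). At 4 h the log2 fold changes were 0.07 (SE 0.16) and −0.09 (SE 0.16), of which the first turned to −0.10 with scaling to total counts. The exons of ERBB2 overlap those of PGAP3 and MIEN1 on the opposite strand (144 and 571 bases) and those of EGFR overlap EGFR-AS1 (186 bases). Since the strand setting of the counting is not given in the sources used here, reads of such pairs may have been assigned to either gene or dropped.

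**Figure D2:**
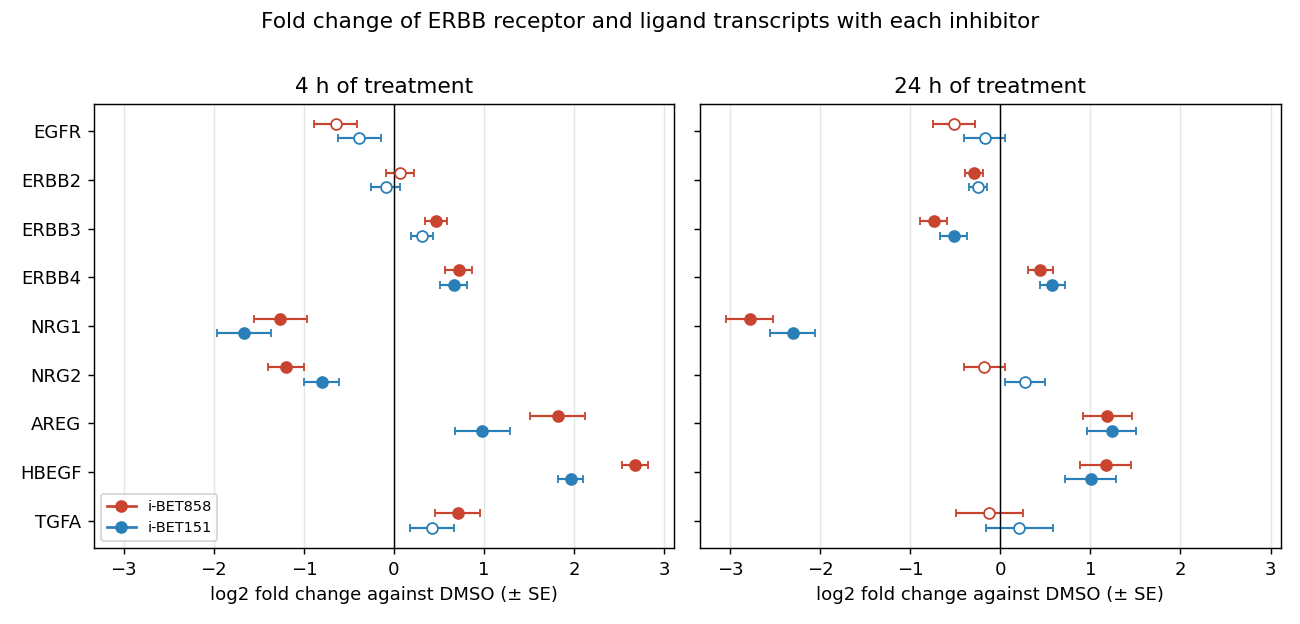
Log2 fold change against DMSO (x axis, ± SE from edgeR) of each tested receptor and ligand after 4 h (left) and 24 h (right), with i-BET858 in red and i-BET151 in blue. Filled points were called at an adjusted p under 0.05 and open points were not. NRG1 is the lowest at both times, HBEGF is the highest at 4 h, and ERBB3 changes side between 4 and 24 h.

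NRG1, the main ligand of ERBB3 and ERBB4, held 15.5, 23.9 and 25.7 CPM in the DMSO libraries at 4 h and 12.6, 16.9 and 15.0 CPM at 24 h. With i-BET858 it held 6.06, 7.68 and 13.2 CPM at 4 h and 2.09, 2.14 and 2.43 CPM at 24 h. With i-BET151 it held 5.62, 7.20 and 7.70 CPM at 4 h and 3.88, 3.31 and 1.95 CPM at 24 h. All treated libraries lay below all DMSO libraries of their time. The log2 fold changes of NRG1 were −1.26 (SE 0.29, edgeR adjusted p = 0.00678) and −1.67 (SE 0.30, adjusted p = 0.00317) at 4 h, and −2.78 (SE 0.26, adjusted p = 1.50e-05) and −2.30 (SE 0.25, adjusted p = 7.60e-05) at 24 h, with i-BET858 and i-BET151. At 24 h this left 0.146 and 0.203 of the DMSO level. These 4 calls held in all alternatives and with each library left out. NRG1 shares 189 bases of its exons with another gene on the same strand.

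NRG2, a second neuregulin, was lower at 4 h only. It held 13.1, 16.8 and 14.3 CPM with DMSO at 4 h, 5.36, 6.69 and 7.16 CPM with i-BET858 and 7.71, 7.67 and 9.94 CPM with i-BET151. The treated and DMSO libraries did not overlap. At 24 h they overlapped, with 11.8, 14.9 and 10.3 CPM with DMSO, 8.25, 13.4 and 12.0 CPM with i-BET858 and 14.9, 12.3 and 18.2 CPM with i-BET151. NRG2 fell at 4 h by 1.19 (SE 0.20, edgeR adjusted p = 8.78e-04) with i-BET858 and by 0.80 (SE 0.20, adjusted p = 0.0171) with i-BET151, the latter not without DMSO replicate 2 (0.0759) or i-BET151 replicate 1 (0.0757) or 2 (0.0748). At 24 h the values were −0.18 (SE 0.22, adjusted p = 0.572) and 0.28 (SE 0.22, adjusted p = 0.377). A lncRNA on the opposite strand shares 234 bases with the exons of NRG2.

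HBEGF and AREG, both EGFR ligands shed from the cell surface, whose promoter windows are printed above, rose with both inhibitors. HBEGF held 7.77, 7.03 and 6.99 CPM with DMSO at 4 h, 50.8, 45.2 and 42.7 CPM with i-BET858 and 29.5, 25.5 and 30.0 CPM with i-BET151. The 3 groups did not overlap, and HBEGF was 6.38-fold higher with i-BET858 (log2 fold change 2.67, SE 0.14, edgeR adjusted p = 7.78e-07) and 3.89-fold higher with i-BET151 (1.96, SE 0.14, adjusted p = 1.42e-05). At 24 h the levels were 5.94, 6.83 and 2.80 CPM with DMSO, 12.0, 14.4 and 9.56 CPM with i-BET858 and 9.54, 10.9 and 11.2 CPM with i-BET151. Treated libraries still lay above DMSO, by 1.17 (SE 0.28, adjusted p = 0.00686) and 1.00 (SE 0.28, adjusted p = 0.0192) on the log2 scale, the latter not without i-BET151 replicate 2 (0.0588).

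AREG held 3.22, 4.95 and 1.94 CPM with DMSO at 4 h, 12.5, 13.7 and 9.51 CPM with i-BET858 and 7.22, 6.98 and 5.87 CPM with i-BET151. At 24 h it held 2.73, 3.33 and 1.72 CPM with DMSO, 6.68, 5.80 and 5.70 CPM with i-BET858 and 5.69, 4.96 and 7.91 CPM with i-BET151. All treated libraries lay above the DMSO libraries of their time. AREG rose by 1.82 (SE 0.31, edgeR adjusted p = 9.76e-04) and 0.98 (SE 0.30, adjusted p = 0.0490) at 4 h and by 1.19 (SE 0.27, adjusted p = 0.00497) and 1.24 (SE 0.27, adjusted p = 0.00530) at 24 h, with i-BET858 and i-BET151. The call with i-BET151 at 4 h was lost without any of 7 of the 9 libraries (adjusted p = 0.0501 to 0.144, the exceptions being DMSO replicate 2 and i-BET858 replicate 3).

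TGFA, another EGFR ligand, held 15.8, 16.5 and 27.5 CPM with DMSO at 4 h, 26.6, 33.9 and 36.6 CPM with i-BET858 and 21.0, 24.9 and 34.1 CPM with i-BET151. Replicate 3 was the highest in all 6 groups, as for EGFR, and the groups overlapped. TGFA rose with i-BET858 by 0.71 (SE 0.25, edgeR adjusted p = 0.0486), and 6 single libraries each took this call away when left out (DMSO replicates 1 and 2, i-BET858 replicates 2 and 3, i-BET151 replicates 1 and 2, adjusted p = 0.0522 to 0.182). The 0.42 (SE 0.25) with i-BET151 did not pass (adjusted p = 0.290, 0.0182 with the replicate block and 0.0494 in replicates 1 and 2 alone). At 24 h TGFA lay at 11.6 to 28.1 CPM with DMSO, 12.6 to 23.9 CPM with i-BET858 and 15.5 to 30.0 CPM with i-BET151, and the log2 fold changes of −0.12 (SE 0.37) and 0.21 (SE 0.37) did not pass. EREG, which binds EGFR and ERBB4, had 7, 12 and 4 counts in the DMSO libraries at 4 h and 0 to 11 counts in every other library. Its group sums at 4 h were 23 counts with DMSO (95% exact Poisson interval 14.6 to 34.5), 4 for i-BET858 (1.09 to 10.2) and 19 for i-BET151 (11.4 to 29.7), intervals that cover counting error only.

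Libraries of the same replicate number were also compared with each other, because replicate 3 was deposited later. Of the 23 calls above, 22 had the same sign within all 3 replicate numbers, and the exception was ERBB3 with i-BET151 at 24 h. The calls came from these same libraries, so a shared sign was nearly given and is no independent support. No share over all called genes is given beside this count. The within-replicate log2 differences of NRG1 lay between −1.63 and −0.96 with i-BET858 at 4 h and between −2.95 and −2.56 at 24 h. HBEGF rose by 2.60 to 2.70 with i-BET858 and by 1.85 to 2.09 with i-BET151 at 4 h. AREG spread more widely, from 1.46 to 2.26 with i-BET858 and from 0.49 to 1.57 with i-BET151. At 24 h both were spread, HBEGF from 1.00 to 1.75 and AREG from 0.79 to 1.70 for i-BET858, and HBEGF from 0.66 to 1.97 and AREG from 0.56 to 2.16 for i-BET151, with replicate 3 the highest each time. In replicates 1 and 2 alone the values for i-BET151 at 24 h were 0.64 (HBEGF, adjusted p = 0.00289) and 0.78 (AREG, 0.00290), and those of ERBB4 at 24 h were 0.26 for i-BET858 (0.0338) and 0.36 for i-BET151 (0.00742), all still called. ERBB3 with i-BET858 lay between 0.36 and 0.53 at 4 h and between −0.90 and −0.33 at 24 h. In replicates 1 and 2 alone the ERBB3 values were 0.45 (edgeR adjusted p = 0.00817) and −0.90 (adjusted p = 6.50e-06).

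The inhibitors were compared with each other at the same dose and times, in 18 comparisons of 9 genes with p-values adjusted over all genes. HBEGF was 1.64-fold higher with i-BET858 than with i-BET151 at 4 h (log2 difference 0.71, SE 0.13, 95% interval 0.42 to 1.01, edgeR adjusted p = 0.0359), the only one of the 9 that was called, against 0.971% of all genes. This call was lost with any 1 of the 9 libraries left out (adjusted p = 0.0553 to 0.186, log2 difference 0.64 to 0.77), where the genes called in all went from 167 to between 0 and 129, although all 3 libraries with i-BET858 lay above all 3 of i-BET151. AREG also lay higher with i-BET858 in 9 of 9 pairs (0.84, SE 0.30, interval 0.18 to 1.49) and did not pass (adjusted p = 0.256), except with the replicate block (0.0209). NRG2 lay lower in 9 of 9 pairs (−0.39, SE 0.20, interval −0.83 to 0.04, adjusted p = 0.489). The receptors differed by −0.26 (interval −0.78 to 0.26) for EGFR, 0.16 (−0.18 to 0.51) for ERBB2, 0.15 (−0.11 to 0.42) for ERBB3 and 0.06 (−0.28 to 0.39) for ERBB4.

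At 24 h none of the 9 genes was called between the inhibitors in edgeR, none had an unadjusted p under 0.05 and DESeq2 called none, while 0.210% of all genes were called. HBEGF differed by 0.17 (interval −0.44 to 0.78), AREG by −0.05 (−0.63 to 0.53) and NRG1 by −0.48 (−1.03 to 0.08). The intervals were −0.94 to 0.04 for NRG2, −1.16 to 0.48 for TGFA, −0.85 to 0.17 for EGFR and −0.26 to 0.18 for ERBB2. In replicates 1 and 2 alone NRG1 was lower with i-BET858 than with i-BET151 (−0.76, adjusted p = 0.0396).

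Whether an effect changed between 4 and 24 h was tested as the interaction of inhibitor and time in all 18 libraries. With i-BET858, 4 of the 9 genes changed their effect, against 27.2% of all genes. The effect on ERBB3 became lower by 1.16 (−1.16, SE 0.20, edgeR adjusted p = 2.78e-04), that on NRG1 lower by 1.47 (−1.47, SE 0.40, adjusted p = 0.0106) and that on HBEGF lower by 1.46 (−1.46, SE 0.32, adjusted p = 0.00232). The effect on NRG2 became higher by 1.06 (SE 0.30, adjusted p = 0.0137), from a fall at 4 h to about the DMSO level. With i-BET151, 2 changed, against 13.8% of all genes. They were ERBB3 (−0.81, SE 0.20, adjusted p = 0.0101) and NRG2 (1.10, SE 0.30, adjusted p = 0.0211), while HBEGF (−0.94, SE 0.32) did not pass (adjusted p = 0.0579, 0.0174 with the replicate block, 0.00244 without DMSO replicate 3 of 24 h, 0.0163 in DESeq2, 0.0469 with its size factors, 0.0214 without a filter, 0.0357 with at least 10 counts and 7.91e-04 in replicates 1 and 2). The NRG2 call with i-BET151 was lost without DMSO replicate 2 of 4 h, DMSO replicate 3 of 24 h, i-BET151 replicate 1 or 2 of 4 h or i-BET151 replicate 3 of 24 h (adjusted p = 0.0518 to 0.0598). ERBB4, AREG, EGFR, ERBB2 and TGFA were not called with either inhibitor, except, for i-BET858, TGFA under the replicate block (−0.79, adjusted p = 0.00584), without a filter (0.0334) and in replicates 1 and 2 alone (0.00794), and ERBB4 in replicates 1 and 2 alone (−0.48, adjusted p = 0.0386). The intervals for ERBB4 were −0.67 to 0.21 and −0.51 to 0.38.

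The DMSO libraries of 24 h were set against those of 4 h to see whether time alone moved these genes. None of the 9 was called in edgeR or DESeq2 and none had an unadjusted p under 0.05, with 0.0386% of all genes called. The largest differences were NRG1 (−0.55, SE 0.28), HBEGF (−0.48, SE 0.23) and AREG (−0.38, SE 0.30). HBEGF lay lower at 24 h in 9 of 9 pairs of DMSO libraries (edgeR unadjusted p = 0.0505, adjusted p = 0.545).

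Levels of different genes were compared per kilobase of annotated exon. In DMSO at 4 h the order was ERBB2 (13.5 ± 1.24 CPM per kb, SD, n = 3), ERBB3 (10.4 ± 0.442), EGFR (6.48 ± 1.42), TGFA (4.06 ± 1.34), ERBB4 (3.77 ± 0.436), NRG2 (3.20 ± 0.413), HBEGF (2.43 ± 0.146), AREG (2.05 ± 0.918), NRG1 (1.02 ± 0.255) and EREG (0.0379 ± 0.0161). The ranges of EGFR and TGFA overlapped, as did those of TGFA, ERBB4 and NRG2 with each other. That of AREG overlapped the ranges of NRG2, HBEGF and NRG1. After 4 h of i-BET858 HBEGF stood at 15.5 ± 1.39 CPM per kb, in the same range as ERBB3 (14.3 ± 1.12) and ERBB2 (14.1 ± 2.63). Per kilobase of the longest transcript it stood at 19.6 ± 1.77, below ERBB3 (26.8 ± 2.09) and ERBB2 (29.6 ± 5.51) without overlap. After 24 h NRG1 was at 0.104 ± 0.00852 CPM per kb with i-BET858 and 0.143 ± 0.0464 after i-BET151, where the DMSO libraries held 0.694 ± 0.102.

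The make-up of the receptors was described as each gene's share of their summed level per kilobase. ERBB4 made up 11.1% ± 0.872 of it with DMSO at 4 h (SD, n = 3) and 11.1% ± 0.602 at 24 h. With i-BET858 its share was 16.0% ± 0.976 and 19.0% ± 0.569, and with i-BET151 16.3% ± 0.939 and 18.9% ± 1.19, with no overlap with DMSO. The share of ERBB3, in the order DMSO, i-BET858 and i-BET151, was 30.6% ± 1.92, 37.2% ± 2.45 and 35.6% ± 1.18 at 4 h and 30.1% ± 2.24, 22.8% ± 0.421 and 24.0% ± 0.570 at 24 h. ERBB3 thus took a larger share of the receptors in treated cells at 4 h and a smaller one at 24 h. EGFR held 18.8% ± 2.50, 10.5% ± 1.40 and 13.5% ± 1.39 at 4 h, again without overlap, and 15.9% ± 2.13, 13.8% ± 2.29 and 15.7% ± 2.86 at 24 h, where the groups overlapped. ERBB2 remained the largest or next to largest with 34.7 to 44.3% in the group means. Shares are relative, and with the length of the longest transcript in place of all exons ERBB4 made up 6.53% with DMSO and 9.61% with i-BET858 at 4 h.

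**Figure D3:**
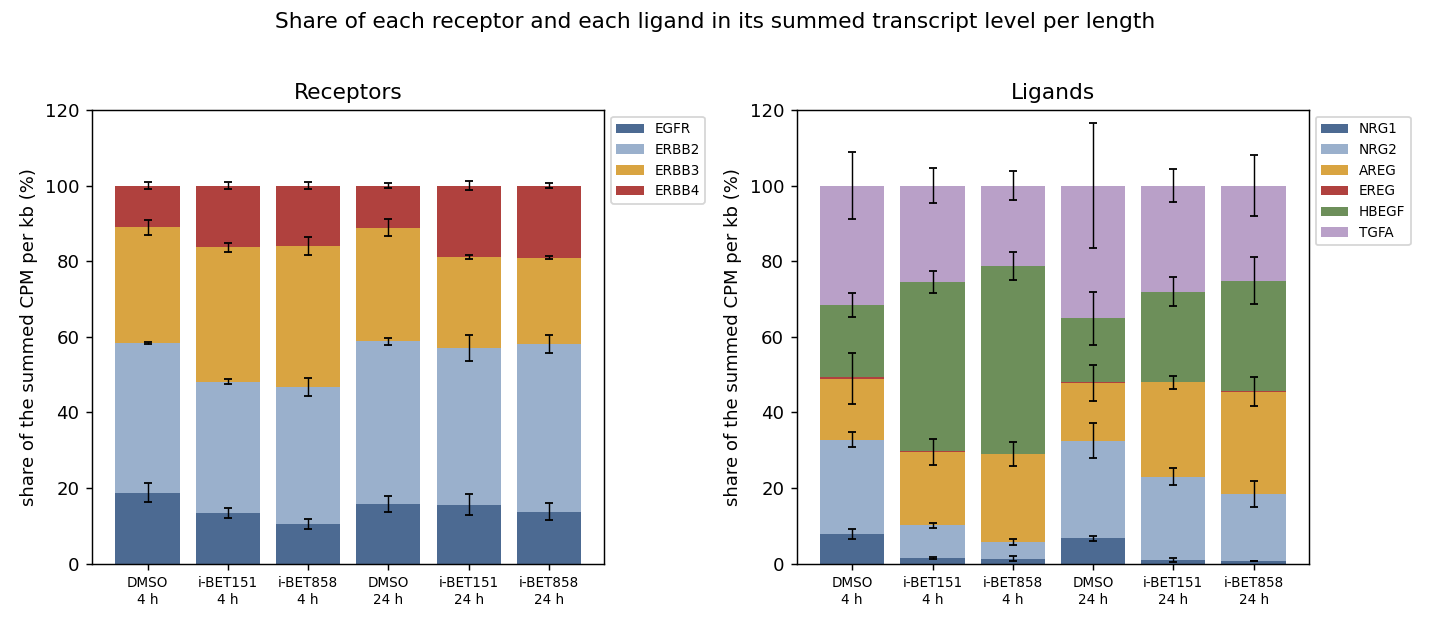
Share (%) of each receptor (left) and each ligand (right) in the summed level per kilobase of its set, as means of 3 libraries with SD bars drawn at the top of each segment. ERBB4 takes a larger share in every treated group, and HBEGF takes 49.7% of the level of these 6 ligands after 4 h of i-BET858 against 19.2% with DMSO (BTC and the other ligands outside the set are not part of the sum).

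The summed level of the 6 ligands was 12.8 ± 1.22 CPM per kb in DMSO at 4 h (SD, n = 3), 31.1 ± 1.29 for i-BET858 and 21.2 ± 1.72 for i-BET151. At 24 h it was 10.4 ± 0.558, 13.7 ± 0.704 and 15.0 ± 3.18. The treated groups lay above DMSO without overlap at both times, but this sum leaves out BTC, which alone stood at 13.9 ± 1.55 CPM per kb in DMSO at 4 h and 14.1 ± 1.90 at 24 h, above each of the 6. With BTC, EGF, EPGN, NRG3 and NRG4 included, a choice made after the levels were seen, the sum was 28.1 ± 0.620 in DMSO, 41.9 ± 1.24 for i-BET858 and 31.2 ± 2.56 for i-BET151 at 4 h, and 25.8 ± 2.55, 18.9 ± 1.06 and 22.4 ± 4.14 at 24 h. The sum of all 11 ligands was thus higher than in DMSO for i-BET858 at 4 h and lower at 24 h, both without overlap, while i-BET151 overlapped DMSO at both times. Within the 6 ligands, HBEGF took 19.2% ± 3.14 in DMSO at 4 h, 49.7% ± 3.76 for i-BET858 and 44.8% ± 2.84 for i-BET151, and of all 11 it took 8.65% ± 0.484, 36.8% ± 2.28 and 30.3% ± 0.492. The neuregulins took less, NRG2 going from 25% ± 1.96 to 4.49% ± 0.769 and 8.64% ± 0.626 and NRG1 from 7.85% ± 1.34 to 1.37% ± 0.629 and 1.51% ± 0.210. At 24 h NRG1 made up 0.757% ± 0.0391 and 1.01% ± 0.465, against 6.69% ± 0.672 with DMSO, and NRG2 17.7% ± 3.54 and 22.0% ± 2.24, against 25.9% ± 4.58. Of all 11 ligands, NRG2 made up 12.9% and 14.7% at 24 h, against 10.5% in DMSO, so that the direction of its share depended on which ligands were summed.

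Some of the ligand genes are neighbours. NRG2 and HBEGF lie on chromosome 5 with 289.5 kb between them (GRCh38, GENCODE 44), and at 4 h NRG2 fell while HBEGF rose with both inhibitors. AREG, EREG, EPGN and BTC, all genes of EGFR ligands, lie in 1 cluster on chromosome 4, with 56.4 kb between EREG and AREG and 289.8 kb between AREG and BTC. AREG rose there, whereas BTC fell with i-BET858 by 0.52 (SE 0.18, edgeR adjusted p = 0.0460) at 4 h and by 1.71 (SE 0.16, adjusted p = 1.83e-05) at 24 h, and with i-BET151 by 0.60 (SE 0.18, adjusted p = 0.0405) and 1.04 (SE 0.16, adjusted p = 6.32e-04). BTC stood at 37.5 ± 5.03 CPM (SD, n = 3) with DMSO at 24 h, 11.8 ± 1.29 CPM with i-BET858 and 18.5 ± 2.88 CPM with i-BET151. EPGN stood at only 1.83 ± 1.53 CPM with DMSO and fell with i-BET858 at 4 h (−2.30, SE 0.77, adjusted p = 0.0404), with overlapping groups. The alternatives, with libraries left out among them, were run for the members only. The calls of BTC and EPGN were thus not checked in that way.

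Other genes of the pathway were counted in 6 lists of 60 genes, 59 of which could be tested. With i-BET858, 9 were called higher and 16 lower at 4 h and 21 higher and 11 lower at 24 h. With i-BET151, 7 were higher and 8 lower at 4 h and 20 higher and 7 lower at 24 h. In all, 25 and 32 of the 59 were called for i-BET858, then 15 and 27 for i-BET151, where the shares over all genes were 30.8% and 41.7% for i-BET858, 16.2% and 33.8% for i-BET151. These shares are also the background of each list below, and the lists, too, were chosen with earlier results known. Their median log2 fold changes were −0.16 and 0.20 with i-BET858 at 4 and 24 h and −0.07 and 0.21 for i-BET151, beside 0.02, −0.01, 0.01 and 0.00 over all genes. Between the inhibitors, 1 gene of the lists was called at each time. No call in the lists was checked under the alternatives.

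The 5 other ligands (EGF, BTC, EPGN, NRG3 and NRG4) had 0 called higher and 2 lower at 4 h with i-BET858 and 0 and 1 at 24 h, with medians of −0.52 and −1.26. Of the 5 genes of ligand shedding, which release or help release the membrane-bound ligands, 1 was higher at 4 h and 3 were lower at 24 h. RHBDL2, a rhomboid protease, fell at 24 h by 4.08 (SE 0.55, edgeR adjusted p = 1.73e-04) with i-BET858 and by 3.52 (SE 0.53, adjusted p = 5.38e-04) with i-BET151. ADAM10, a sheddase, fell with i-BET858 at 24 h by 0.49 (SE 0.15, adjusted p = 0.0219). RHBDF2, which brings the sheddase ADAM17 to the cell surface, rose by 0.53 (SE 0.16, adjusted p = 0.0237) at 4 h and fell by 0.29 (SE 0.09, adjusted p = 0.0202) at 24 h.

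Of 13 adaptors, 3 were higher and 3 lower at 4 h with i-BET858, and 4 were higher and 0 lower at 24 h (medians −0.16 and 0.32). GRB2, which couples the receptors to RAS, rose by 0.33 (SE 0.09, edgeR adjusted p = 0.0158) at 4 h and 0.60 (SE 0.08, adjusted p = 1.61e-04) at 24 h. EPS8, a substrate of EGFR, rose by 1.22 (SE 0.21, adjusted p = 0.00105) and 1.26 (SE 0.20, adjusted p = 4.47e-04), and SOS2, a RAS exchange factor, by 0.60 (SE 0.12, adjusted p = 0.00208) at 24 h. GAB2, a docking protein for PI3K, fell by 1.49 (SE 0.19, adjusted p = 1.41e-04) at 4 h. At 24 h GAB2 fell with i-BET151 (−0.99, SE 0.17, adjusted p = 0.00119) but lay at 0.20 (SE 0.17, adjusted p = 0.362) with i-BET858.

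Of 12 genes of RAS-MAPK signalling, 1 was higher and 5 lower at 4 h with i-BET858 and 4 were higher and 3 lower at 24 h (medians −0.07 and −0.02). MAPK3, which encodes the kinase ERK1, fell at 24 h, with a log2 fold change of −2.02 (SE 0.19, edgeR adjusted p = 1.92e-05) for i-BET858 and −1.63 (SE 0.19, adjusted p = 1.20e-04) for i-BET151. MAP2K1, the kinase above it, rose by 0.60 (SE 0.13) at 4 h and 0.62 (SE 0.09) at 24 h (adjusted p = 0.00538 and 2.45e-04). BRAF, a kinase further up the cascade, fell at 4 h by 0.87 (SE 0.18, adjusted p = 0.00300).

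Of 11 genes of PI3K-AKT signalling, 10 of them tested, 3 were higher and 2 lower at 4 h and 6 higher and 2 lower at 24 h with i-BET858 (medians 0.04 and 0.36). PDPK1, the kinase that activates AKT, rose by 1.05 (SE 0.14, edgeR adjusted p = 1.73e-04) and 0.91 (SE 0.11, adjusted p = 9.14e-05). The regulatory subunits PIK3R1 and PIK3R3 rose at 4 h by 1.39 (SE 0.17, adjusted p = 1.21e-04) and 1.11 (SE 0.14, adjusted p = 1.33e-04) and were still higher at 24 h (0.61 and 0.64). PIK3CD, a catalytic subunit, fell at 24 h by 0.68 (SE 0.13, adjusted p = 0.00161).

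Of 14 negative regulators of the receptors, 1 was higher and 4 lower at 4 h and 7 were higher and 2 lower at 24 h with i-BET858 (medians −0.27 and 0.33). ERRFI1, which binds and blocks the EGFR kinase, rose by 2.01 (SE 0.11, edgeR adjusted p = 8.90e-07) at 4 h and 0.96 (SE 0.11, adjusted p = 6.92e-05) at 24 h with i-BET858, and by 1.29 (SE 0.11, adjusted p = 3.40e-05) and 0.67 (SE 0.11, adjusted p = 0.00101) with i-BET151. LRIG3 fell by 1.52 (SE 0.16, adjusted p = 3.77e-05) and 0.86 (SE 0.17, adjusted p = 0.00230) with i-BET858. CBLC, an E3 ligase of the CBL family, fell by 0.82 (SE 0.17, adjusted p = 0.00248) at 24 h. These lists are described by their counts alone, and no list was tested as a set.

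**Figure D4:**
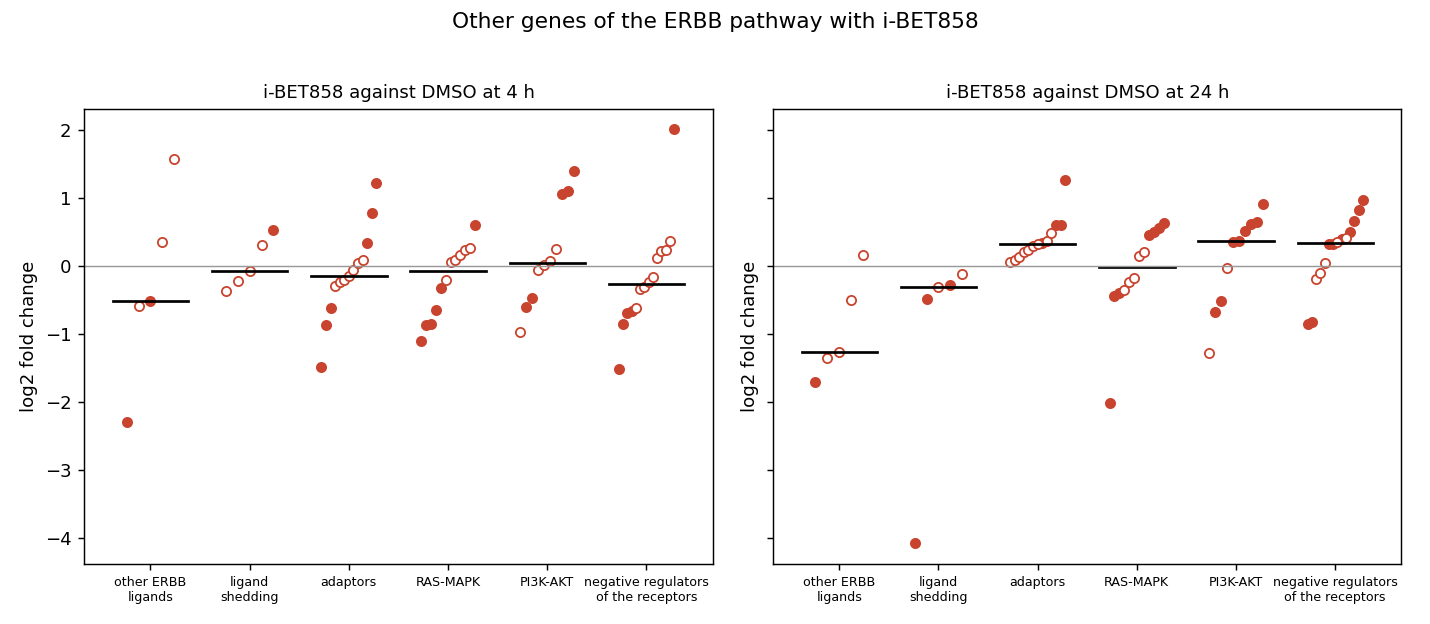
Log2 fold change with i-BET858 against DMSO of the tested genes of the other ERBB pathway lists at 4 h (left) and 24 h (right), each point 1 gene. Filled points were called at an adjusted p under 0.05, and the black line is the median of the list. The highest point at 4 h is ERRFI1 (2.01) and the lowest at 24 h is RHBDL2 (−4.08), whose treated level rests on few counts.

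For the 8 members called in any comparison with DMSO, the genes with the most similar levels over the 18 libraries were found among 13575 protein-coding genes, as the smallest root mean square difference of centred log2 CPM. Nearest to NRG1 were S1PR5 (0.365), GPRC5C (0.392) and PLEK2 (0.400), where NRG1 itself had an SD of 1.19. Nearest to HBEGF were GADD45B (0.322), ULBP1 (0.334) and WNT4 (0.351), with an SD of 1.14, and nearest to AREG were TRIM24, EPHB3 and COQ10A (0.275 to 0.316, SD 0.792). ERBB3 lay nearest to TPCN1, PTBP1 and CPQ (0.156 to 0.169, SD 0.487), ERBB4 to genes that include COL6A2 and FOXO3 (0.16 and 0.161, SD 0.347), and NRG2 to RBL1, IFNAR1 and DLG1 (0.234 to 0.239, SD 0.486). TGFA lay nearest to LRRN1, FOXI3 and SOWAHC (0.201 to 0.243, SD 0.517) and ERBB2 to SREBF2, SLC4A2 and TM9SF4 (0.0913 to 0.112, SD 0.176). None of the 8 was nearest to another member.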

How the data were processed

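The authors sequenced the poly-A RNA in paired ends, checked the reads with FastQC and ran STAR against GRCh38, which also gave the counts. What they deposited are raw counts per gene, in 1 table for each of the 2 times. The gene annotation and strand setting are not given in the sources used here. Of 58825 gene IDs, 58472 (99.4%) matched GENCODE 44, which gave symbols, positions and exon lengths. Groups came from the sample titles. The p-values rest on the spread between replicates within groups, estimated jointly over all groups of a fit. The study calls these replicates biological. Without the block, this spread includes differences between replicate numbers.

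For each time point, edgeR 4.0.16 was fitted to its 9 libraries (R 4.3.3, TMM, filterByExpr, quasi-likelihood test), and all 18 for changes between times. The p-values were adjusted by Benjamini-Hochberg over all genes tested. SE is the absolute log2 fold change divided by the root of F. Alternatives were DESeq2 1.42.0 (which the study's methods name, at an FDR under 0.05), its size factors, total counts, no filter, at least 10 counts in every library, other sets of libraries, each library left out, a 2-fold minimum and the replicate number as a block. All 10 members are named. Of each list, up to 3 genes called at 24 h and 2 at 4 h with i-BET858, those with the largest fold, are named. Some genes that these rules name are not reported here. Promoter windows are printed for genes called with both inhibitors at both times, apart from NRG1, for which the RefSeq table gave no window. Members and lists were chosen with earlier results of these data known.

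After removal of group means, libraries of the same replicate number correlated at 0.125 to 0.344 at 4 h and 0.145 to 0.330 at 24 h. Those of different numbers correlated at −0.311 to 0.216 (median −0.204) and −0.304 to 0.285 (median −0.232), so the ranges overlapped. Whether replicate 3 alone gives these correlations was not tested. The numbers were taken to pair the libraries only in the replicate block and the within-replicate differences, not in the main fits. Replicates 1 and 2 of a group differed by 4.47 to 24.3 times counting variance (chi-square per degree of freedom), and replicate 3 from either by 46.8 to 72.6 times.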

Additional observations from a re-analysis of the deposited data

Results flagged for a closer look

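The effect of an inhibitor differed between 4 and 24 h in 6 cases, by the interaction test in edgeR over all 18 libraries. With i-BET858 these were ERBB3 (−1.16, adjusted p = 2.78e-04), NRG1 (−1.47, adjusted p = 0.0106), NRG2 (1.06, adjusted p = 0.0137) and HBEGF (−1.46, adjusted p = 0.00232) on the log2 scale. With i-BET151 they were ERBB3 (−0.81, adjusted p = 0.0101) and NRG2 (1.10, adjusted p = 0.0211). ERBB3 is the only one of them whose fold changes were called in opposite directions at the 2 times, with i-BET858. Its DMSO level did not differ detectably between the times (−0.13, SE 0.14). Why the effects differ was not tested.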

How the results depend on the processing

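Of 1656 values of single genes under an alternative, 1509 kept their direction and side of the threshold, 59 lost a call, 38 gained one and 50 changed sign. Most of the 1656 were not called in the main fit and so could not lose a call. Among them were 234 for DMSO over time and 162 between the inhibitors at 24 h. The 1656 are thus no measure of how stable the calls were. With a 2-fold minimum, 4, 2, 3 and 3 genes remained called against DMSO (i-BET858 and i-BET151 at 4 h, then at 24 h), 0 between the inhibitors at 4 h and 1 for the change of the i-BET151 effect. With the replicate block 8 genes were called with i-BET151 at 4 h (EGFR, ERBB3 and TGFA in addition) and 2 between the inhibitors at 4 h (AREG in addition). Other calls that the block changed are given beside their results. Between the inhibitors 0 were called at 4 h with total counts, with all 18 libraries or with only the 2 groups, and 1 at 24 h in replicates 1 and 2 alone. Total counts moved the median of all genes with i-BET858 at 4 h from 0.02 to −0.14, and the share of higher among called genes from 47.1 to 32% (from 42.5 to 16.6% between the inhibitors at 4 h, from 44.4 to 26.8% at 24 h, where DESeq2 size factors gave 76.9% of 13 genes).

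With single libraries left out, the calls ran from 3 to 5 with i-BET151 at 4 h, from 3 to 6 at 24 h and from 1 to 2 for the change of the i-BET151 effect, and were 0 throughout between the inhibitors at 4 h. Over all genes the calls then ran from 1685 to 3222 (2791 with every library) with i-BET151 at 4 h, from 4272 to 6175 (5797) at 24 h and from 1595 to 2671 (2508) for that change. The lowest counts came, with i-BET151 at 4 h, without DMSO replicate 1 or i-BET151 replicate 1 or 2, at 24 h without i-BET151 replicate 2, and for the change without DMSO replicate 2, i-BET151 replicate 1 or 2 of 4 h or i-BET151 replicate 3 of 24 h. Calls lost under other settings were those with total counts of TGFA (i-BET858 at 4 h, 0.55, adjusted p = 0.0956), AREG (i-BET151 at 4 h, 0.91, 0.0799) and ERBB4 (i-BET858 at 24 h, 0.35, 0.0748), with all 18 libraries of TGFA (0.70, 0.124), and with only the 2 groups of AREG (0.99, 0.0699). ERBB2 with i-BET858 at 24 h was lost without a filter (−0.26, 0.154), with all 18 libraries (−0.25, 0.157) and from the 2 groups (−0.28, 0.0556). Over all genes, the replicate block called 1655 rather than 167 genes between the inhibitors at 4 h (DESeq2 761, the 2 groups alone 0), 749 rather than 36 at 24 h (DESeq2 547, the 2 groups alone 1), 5616 rather than 2791 with i-BET151 at 4 h and 375 rather than 7 for DMSO over time (DESeq2 204).

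Sign changes concerned values that had not passed the test. With total counts ERBB2 moved to −0.10 (i-BET858 at 4 h) and ERBB4 to −0.0416 (between inhibitors at 4 h). In replicates 1 and 2 alone ERBB2 moved to −0.0308 (i-BET858 at 4 h), TGFA to 0.0459 (i-BET858 at 24 h), NRG2 to −0.0058 (i-BET151 at 24 h), and between inhibitors at 24 h ERBB2 to 0.0216 and AREG to 0.24. For DMSO at 24 against 4 h, ERBB2 (−0.0033) moved to 0.0089 with DESeq2 or its size factors, 0.0061 under the replicate block, 0.0427 by total counts, 0.0288 for genes with at least 10 counts and 0.0139 from the 2 groups alone. In replicates 1 and 2 it moved to 0.11, ERBB3 to 0.0186 and ERBB4 to 0.0863.

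With libraries left out, ERBB2 ranged from −0.10 to 0.16 (i-BET858 at 4 h), NRG2 from −0.33 to 0.0079 and TGFA from −0.43 to 0.39 (i-BET858 at 24 h), and TGFA from −0.13 to 0.72 (i-BET151 at 24 h). Between inhibitors, ERBB2 ranged from −0.0026 to 0.30 and ERBB4 from −0.0665 to 0.19 at 4 h, and ERBB2 from −0.079 to 0.0408, AREG from −0.17 to 0.19 and TGFA from −0.66 to 0.0226 at 24 h. For the change of effect, EGFR ranged from −0.0451 to 0.37 for i-BET858, and for i-BET151 EGFR from −0.0697 to 0.45, ERBB4 from −0.20 to 0.0451, AREG from −0.12 to 0.55 and TGFA from −0.51 to 0.30. For DMSO over time, ERBB2 ranged from −0.0652 to 0.0634, AREG from −0.66 to 0.0045 and TGFA from −0.63 to 0.15. The cause of these changes was not tested. With the 5 other ligands included, chosen after seeing the data, the summed ligand level of treated minus DMSO libraries at 24 h went from 3.35 to −6.92 CPM per kb for i-BET858 and from 4.68 to −3.36 for i-BET151. EREG was limited by depth, at 0 to 12 counts a library. With the longest transcript in place of all exons the ERBB2 share rose to 40.7 to 52.1% and that of ERBB4 fell to 11.5% or less.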
